A study of Caenorhabditis elegans with 6 samples.

Results

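Worms that had received X-rays at either of 2 doses were compared, as 1 group of 4 libraries, with 2 libraries of unirradiated worms, to ask which transcripts lie outside the unirradiated range at both doses. All 6 libraries of the series enter this comparison: 2 at 0 Gy, 2 at 200 Gy and 2 at 400 Gy (gray, the unit of absorbed dose). Each library was made from whole Caenorhabditis elegans, age-synchronised hermaphrodites that had been young adults for a day after the last larval stage. Worms were irradiated with a linear accelerator and RNA was taken with Trizol. The sources used here give no time from irradiation to harvest. No genotype, strain or other agent is named in the labels, and the 0 Gy worms differ from the others, as far as the labels say, only in dose.

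X-rays break DNA, and in C. elegans the response is best known from the germline, where checkpoint kinases and the p53 protein CEP-1 raise the cell death gene egl-1 and where dividing nuclei stop. The somatic cells of an adult no longer divide. An adult hermaphrodite of this age makes oocytes, holds sperm made earlier, and carries embryos in its uterus, so that whole-worm RNA joins somatic tissues, germline and embryos. In such bulk RNA, fewer cells of a type and less RNA per cell cannot be told apart.

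Libraries held from 9554479 to 12315765 gene counts, and 14417 of 45292 listed genes had enough counts to be tested. Values are CPM, the counts of a gene relative to its library's size, scaled with TMM factors (trimmed mean of M-values) that ran from 0.751 to 1.24. Markers of the expected tissues were detected in all 6 libraries: glh-1 of the germline at 82.7 to 615 CPM, oma-1 of oocytes at 43.3 to 281 CPM, the sperm gene msp-142 at 2.62 to 21.5 CPM, the embryonic pes-10 at 0.817 to 9.43 CPM, the yolk gene vit-2 of the intestine at 4082 to 22750.000 CPM, dpy-7 of the epidermis at 4.55 to 68.3 CPM, myo-2 of the pharynx at 7.04 to 89.2 CPM, unc-54 of body wall muscle at 475 to 3800.4 CPM and the neuronal snb-1 at 105 to 291 CPM. The libraries differ by dose in how counts spread over short and long genes. Regressed on log2 coding length, a library's log2 deviation had slopes of 0.069 and 0.052 without irradiation, -0.28 and -0.53 after 200 Gy, and 0.42 and 0.28 after 400 Gy, so the trends of the 2 irradiated doses point in opposite directions. Where a value is called length-corrected, this trend was removed from each library. The share of ribosomal RNA counts ran from 0.696% to 9.26% and was higher in replicate 2 at each dose. Whether both libraries of a dose are from separate cultures is not in the labels. The p-values then reflect only how these libraries vary, and part of that can be technical.

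In all 4 irradiated libraries 1256 genes (8.71% of those tested) stood above both 0 Gy libraries, and 1588 genes (11%) stood below both. Were the 6 libraries of a gene in random order, each of these sides would have a probability of 0.0667. The counts alone therefore do not mark single genes as changed by irradiation. Genes of sperm, C-type lectins, many collagens of the col group and muscle genes were frequent on the upper side. Genes first transcribed in embryos, genes of the epidermis and its outer matrix, hedgehog-related genes, furrow collagens and F-box genes were frequent on the lower side. The gap between the nearest libraries of the 2 groups was under 1.5-fold for most of them, with 426 above and 553 below past that size. It was at least 2-fold for 155 genes above (1.08%) and 242 below (1.68%), at least 4-fold for 13 and 22, and at least 8-fold for 1 and 2. The gene above with a gap over 8-fold was mul-1, and those below were F10D2.8 and its neighbour F10D2.12. These 3 were chosen after their values were seen.

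In the quasi-likelihood test of edgeR for the irradiated group against 0 Gy, adjusted over all genes by Benjamini-Hochberg, 0 genes passed, and the smallest adjusted p was 0.393. At an unadjusted p under 0.05 there were 1456 genes, 817 higher (5.67%) and 639 lower (4.43%), and the DESeq2 Wald test called 78 (45 higher, 33 lower). This test counts any difference between 200 and 400 Gy as spread within the group, and the biological coefficient of variation was 55.3%, against 35.1% with 3 dose groups. An exact permutation test of 1 gene over 4 against 2 libraries cannot go below p = 0.0667. With the length trend removed, edgeR called 29 genes, 2 higher (0.0139%) and 27 lower (0.187%), and 28 of them were on the same side of both 0 Gy libraries without the correction as well. The exception was tag-80, with 6.3 and 15.3 CPM without irradiation, 0.418 and 0.77 after 200 Gy, and 14.4 and 17.6 after 400 Gy. These 29 calls depend on single libraries: leaving out the first or second 0 Gy library left 3 and 0 calls, leaving out the first or second 200 Gy library gave 308 and 330, and leaving out the first or second 400 Gy library gave 62 and 4. The replicate number as a block left 0 of them, and 3 dose groups with the correction, a fit chosen after the data were seen, gave 533 (171 higher or 1.19%, 362 lower or 2.51%). In what follows, "called" refers to the length-corrected test of the irradiated group, and all other genes are described by their values.

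**Figure D1:**
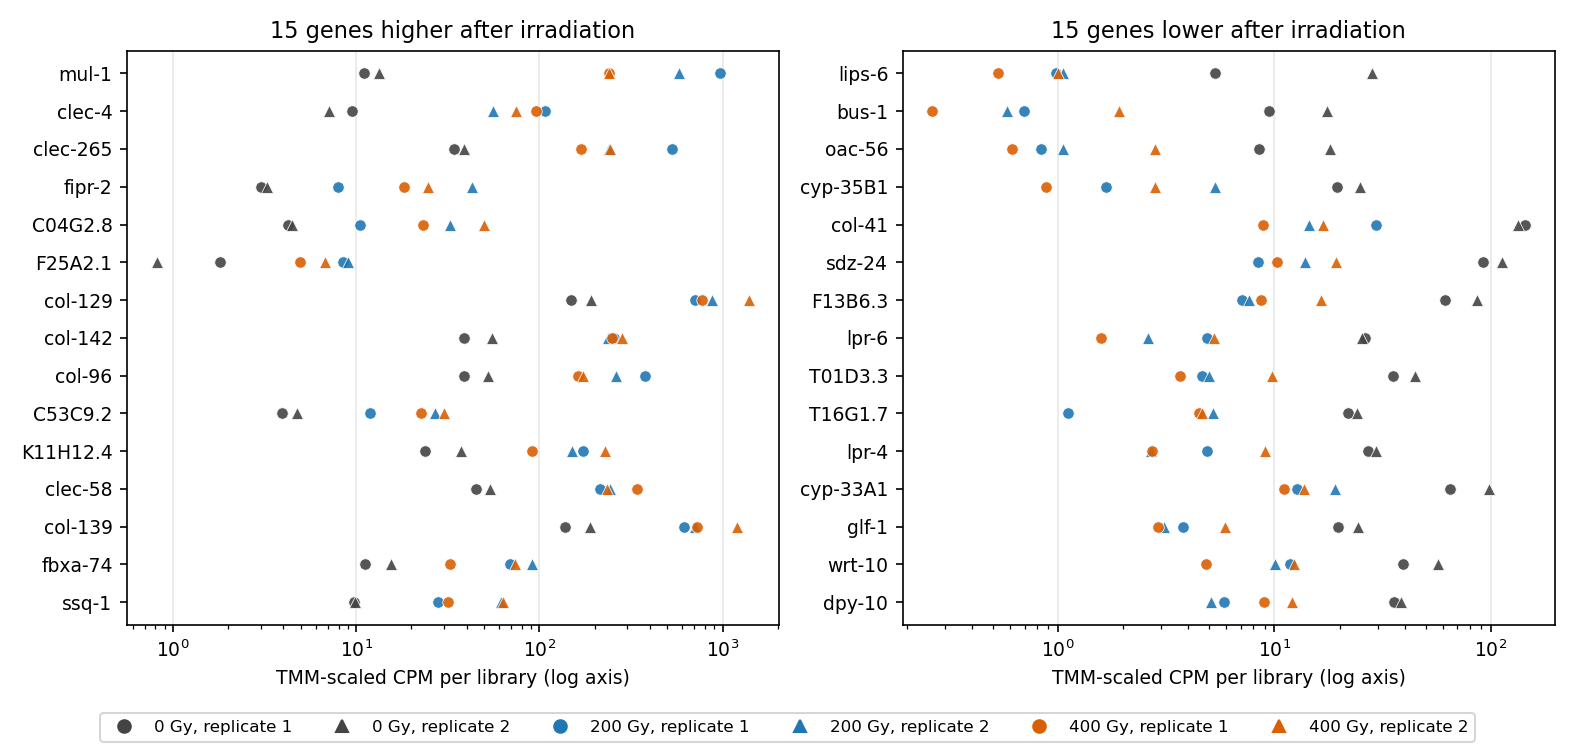
TMM-scaled CPM (x axis, log scale) in each of the 6 libraries for the 15 higher and 15 lower genes with the smallest p among non-overlapping genes of at least 5 CPM. Colours give the dose and symbols the replicate, and in each row the 4 irradiated libraries lie on 1 side of both 0 Gy libraries, with mul-1 separated by a gap of 18-fold.

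The gene with the largest gap upward, mul-1 (chromosome IV, 4121371 to 4123020), encodes a mucin-like protein. Its libraries had 11 and 13.3 CPM without irradiation, 972 and 576 after 200 Gy, and 240.2 and 240.4 after 400 Gy. All 4 irradiated libraries were far above both 0 Gy libraries, the lowest of them by 18-fold, and the 200 Gy libraries were the higher ones. Its log2 fold change was 5.38 ± 0.92 (SE; edgeR adjusted p = 0.393), and 5.19 ± 0.72 length-corrected (edgeR adjusted p = 0.0188; 7.29e-11 to 1.0 over its alternatives). Ranges of adjusted p over alternatives, here and below, cover every setting of the test against 0 Gy, in edgeR or DESeq2. Most of these settings had no length correction, so the ranges are not those of the length-corrected call alone. The 2 doses differed for this gene (log2 fold change -1.69 for 400 against 200 Gy, edgeR adjusted p = 0.015, and 0.151 length-corrected).

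The other gene called higher was clec-4 (chromosome II, 12578418 to 12581054), a C-type lectin gene. Its libraries held 9.42 and 7.07 CPM without irradiation, 108 and 55.6 after 200 Gy, and 95.8 and 74.2 after 400 Gy. The irradiated libraries of both doses overlapped each other and stood at least 5.9-fold above 0 Gy (length-corrected log2 fold change 3.38 ± 0.50, edgeR adjusted p = 0.0209; 1.00e-05 to 1.0 over its alternatives). C-type lectins are a large family of mostly secreted proteins with a sugar-binding fold, several of which respond to microbes. Of 132 tested members, 30 stood above both 0 Gy libraries and 9 below, and the median log2 fold change was 0.76 against 0.18 over all genes tested. Values of clec-265 were 34 and 38.9 CPM without irradiation, 530.3 and 240.2 after 200 Gy, and 169 and 243 after 400 Gy. Those of clec-58 were 44.8 and 53.7 CPM without irradiation, 213 and 244 after 200 Gy, and 340.01 and 233 after 400 Gy, so that the doses lay close to each other. Also above were clec-67 (2.2 ± 0.58) and clec-64 (2.8), while clec-218 (-2.32) and clec-55 (-2.04) were the members furthest below. Per library, the median deviation of the lectins was -0.00034 and 0.00034 without irradiation, 0.52 and 0.85 after 200 Gy, and -0.085 and 0.21 after 400 Gy, so that the first 400 Gy library did not stand above 0 Gy. Reads can be shared between near-identical lectin genes. Scaled by library totals alone, the lectin count was 13 above and 12 below, with the median of all genes at -0.24.

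Collagens of the cuticle, the layered coat that the epidermis secretes, were on both sides. Of 144 tested members 37 stood above both 0 Gy libraries and 42 below. Groups of collagens differed in their counts, a difference that was not tested. Among the 124 genes named col, 36 were above and 27 below (median log2 fold change 0.74). Among the 20 named for the body shape of their mutants (dpy, sqt, rol, bli, lon), 1 was above and 15 below (median -1.64), a split made after the values were seen. The 6 collagens of the annular furrows, the grooves between the rings of the cuticle, were all below. Of the col genes, col-129 had 149 and 192 CPM without irradiation, 707 and 872 after 200 Gy, and 769.9 and 1401 after 400 Gy. The libraries of col-142 held 38.6 and 55.1 CPM without irradiation, 256 and 236 after 200 Gy, and 249.6 and 283 after 400 Gy. Both were at least 3.68-fold above 0 Gy in every irradiated library. The same side was taken by col-139 (2.32 ± 0.60) and col-96 (2.42 ± 0.62).

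On the lower side, col-41 (chromosome X, 15175107 to 15176463) had 144 and 134 CPM without irradiation, 29.4 and 14.4 after 200 Gy, and 8.85 and 16.7 after 400 Gy. It was called lower (-2.96 ± 0.45 length-corrected, edgeR adjusted p = 0.0253; 0.000747 to 1.0 over its alternatives), and its span overlaps ucr-2.2, from which reads cannot be told apart without strand. The furrow collagen gene dpy-7 had 55.7 and 68.3 CPM without irradiation, 17.2 and 19 after 200 Gy, and 4.55 and 13.3 after 400 Gy and was called lower too (-2.32 ± 0.44 length-corrected, edgeR adjusted p = 0.0499; 0.0206 to 1.0 over its alternatives). The furrow collagen gene dpy-10 had 35.9 and 38.5 CPM without irradiation, 5.86 and 5.1 after 200 Gy, and 8.93 and 12.1 after 400 Gy. In both genes each irradiated library stood at least 2.94-fold below 0 Gy. Log2 fold changes of the other 4 furrow collagens were -1.75 for dpy-2, -2.16 for dpy-3, -1.97 for dpy-8 and -1.79 for dpy-9. Further body-shape collagens below were sqt-1 (-2.16 ± 0.59), rol-6 (-1.93 ± 0.62) and sqt-3 (-1.67 ± 0.55). The exception above was dpy-17 (7.12 and 7.07 CPM without irradiation, 8.79 and 13.1 after 200 Gy, and 15.6 and 10.7 after 400 Gy), with a small gap of 1.23-fold.

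The epidermis also makes the transient matrix that shapes the cuticle, from zona pellucida proteins, lipocalins and hedgehog-related proteins. Of 35 tested genes of the apical matrix and moulting, 16 stood below both 0 Gy libraries and 0 above (median -1.32, and -1.49 length-corrected). Per library, the median log2 deviation of the list's CPM from the 0 Gy mean, with 1 added to each CPM, was -0.098 and 0.092 without irradiation, -1.78 and -1.9 after 200 Gy, and -1.22 and -0.30 after 400 Gy. Both 200 Gy libraries were the lowest, and the second 400 Gy library was the nearest to 0 Gy. The list was not on 1 side throughout: 11 of the 35 had a higher log2 fold change, and 5 stood below 0 Gy at 200 Gy and above it at 400 Gy. The latter pattern was found in 1292 of all 14417 genes tested. The summed CPM of its members was 1822 and 1889 CPM without irradiation, 1078 and 649 after 200 Gy, and 3954 and 3427 after 400 Gy, so the sum, which its most abundant members set, was highest at 400 Gy. The zona pellucida protein gene noah-2 had 70.6 and 58.4 CPM without irradiation, 10.6 and 8.96 after 200 Gy, and 16.4 and 39.3 after 400 Gy. In noah-1, of the same family, the values were 70.2 and 62.2 CPM without irradiation, 4.32 and 4.24 after 200 Gy, and 18.9 and 49.4 after 400 Gy. The second 400 Gy library of both genes lay within 1.5-fold of 0 Gy, and the doses differed (edgeR adjusted p = 0.0346 and 0.00546 for 400 against 200 Gy, and 0.761 and 0.231 length-corrected). The moulting genes mlt-8 (-1.85 ± 0.55) and mlt-9 (-1.89 ± 0.57) and che-14 (-2.16 ± 0.62), which encodes a relative of Dispatched needed for apical secretion, were below as well.

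The lipocalin-related genes, whose products bind lipids and act in the apical matrix of epithelia, stood out by their position. Of 7 tested lpr genes 6 were below and 0 above, a family looked at after its values were seen. On chromosome X, from 11057372 to 11066560, 5 neighbouring tested genes (C09F12.6, lpr-3, lpr-6, lpr-5 and lpr-4) were all below both 0 Gy libraries, with a median gap of 2.33-fold. The values of lpr-6 were 26.3 and 25.3 CPM without irradiation, 4.88 and 2.6 after 200 Gy, and 1.58 and 5.26 after 400 Gy. Those of lpr-4 were 27.2 and 29.4 CPM without irradiation, 4.88 and 2.7 after 200 Gy, and 2.71 and 9.08 after 400 Gy. The spread within the irradiated group was wide, but no irradiated library reached 0 Gy. The gene lpr-6 was called lower (-2.92 ± 0.48 length-corrected, edgeR adjusted p = 0.0281; 0.00378 to 1.0 over its alternatives), and log2 fold changes were -1.99 for lpr-3 and -2.0 for lpr-5.

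C. elegans has no canonical hedgehog pathway but large families of hedgehog-related secreted proteins (warthog, groundhog and ground-like) and of patched-related membrane proteins, many of them made in the epidermis. Of 58 tested members 27 were below and 1, ptr-21, above (median -0.90, -0.80 length-corrected). The warthog gene wrt-10 (chromosome II, 7533496 to 7534446) had 39.4 and 56.9 CPM without irradiation, 11.9 and 10.01 after 200 Gy, and 4.82 and 12.3 after 400 Gy. Both doses were below 0 Gy, and the gene was called lower (-2.42 ± 0.41 length-corrected, edgeR adjusted p = 0.0331; 0.0206 to 1.0 over its alternatives). Other members below were the ground-like grl-2 (-3.25 ± 1.03) and the patched-related ptr-4 (-2.49 ± 0.74) and ptr-10 (-2.22 ± 0.61). The members of this list and those of the apical matrix overlap in 9 tested genes, wrt-10 among them, so the counts of the 2 lists are not independent.

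**Figure D2:**
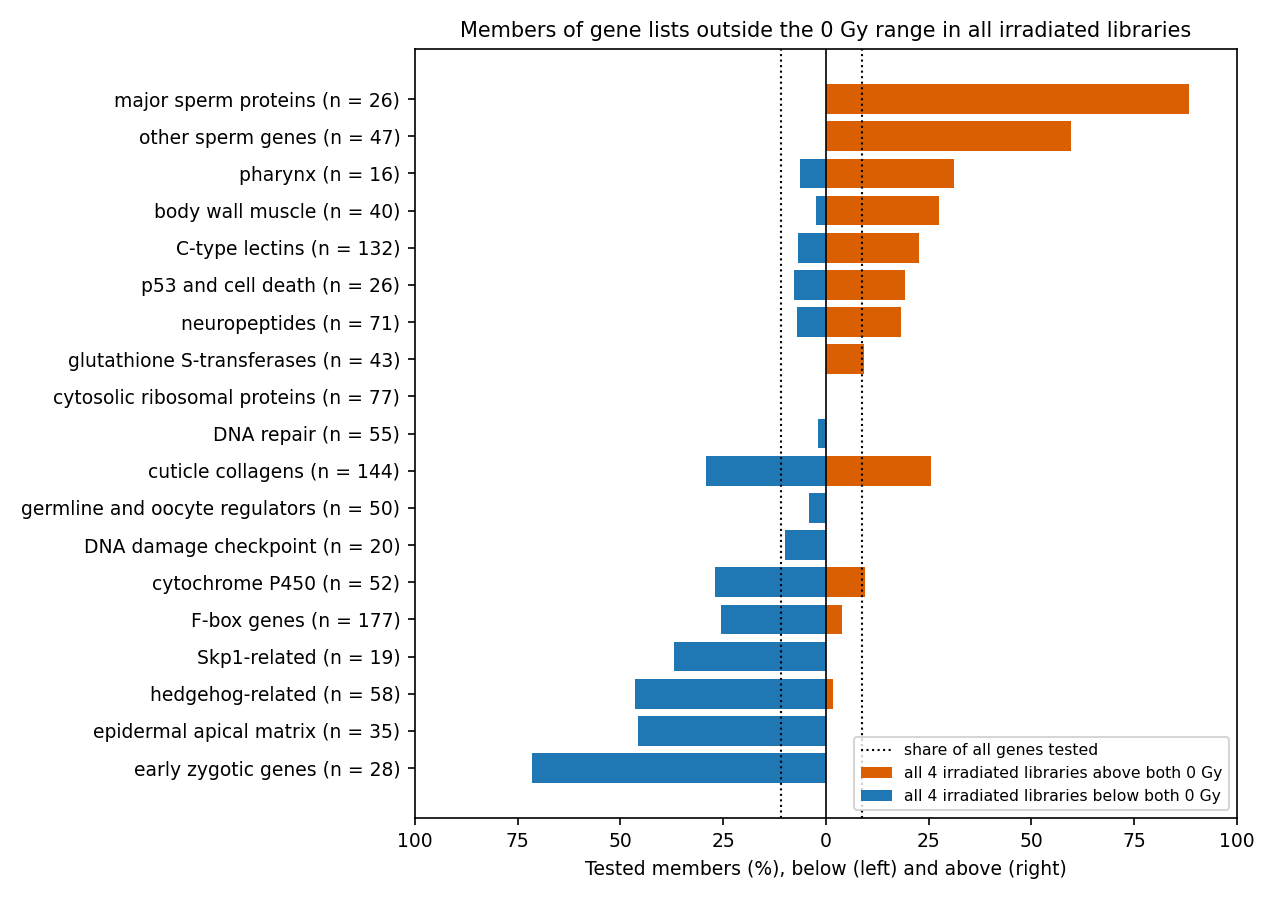
Share of the tested members of 19 gene lists (x axis, %) with all 4 irradiated libraries above both 0 Gy libraries (right, orange) or below both (left, blue). Dotted lines mark the shares over all genes tested, 8.71% above and 11% below, and n is the number of members tested.

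Genes of sperm had the highest shares above 0 Gy of the 50 lists with tested members. Of 26 tested major sperm proteins, the small cytoskeletal proteins by which nematode sperm crawl, 23 stood above both 0 Gy libraries and 0 below (median 2.06). Of 47 other sperm genes 28 were above and 0 below (median 1.92). With library totals alone the counts were 14 above and 0 below for the major sperm proteins, and 14 above and 2 below for the other sperm genes, with medians of 1.70 and 1.56. Per library, the median deviation of the major sperm proteins from the 0 Gy mean was 0.14 and -0.15 without irradiation, 0.68 and 2.35 after 200 Gy, and 1.14 and 2.01 after 400 Gy. Replicate 2 was the higher one at both irradiated doses, and the 0 Gy libraries differed by far less. The median of the list ran from 1.72 to 2.48 with single libraries left out. Length-corrected, 16 of the 26 were above and the median was 1.8, and 0 members were called.

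Among single sperm genes, ssq-1 (chromosome IV, 9852589 to 9853558), of a family of sperm-specific genes, had 9.66 and 9.84 CPM without irradiation, 27.9 and 61.9 after 200 Gy, and 31.8 and 62.9 after 400 Gy. Values of msp-40 were 2.29 and 3.09 CPM without irradiation, 7.95 and 36.8 after 200 Gy, and 8.85 and 18.1 after 400 Gy. The sperm phosphatase gene gsp-3 had 2.87 and 2.68 CPM without irradiation, 4.74 and 11.8 after 200 Gy, and 12.9 and 25.3 after 400 Gy. In all 3 the second library of each irradiated dose was the higher one. The copies of major sperm proteins are nearly identical, so counts of single members are uncertain. The Argonaute genes alg-3 and alg-4, which act with small RNAs in sperm formation, were above as well and differed between the doses. In alg-3 the values were 1.39 and 1.3 CPM without irradiation, 2.51 and 3.66 after 200 Gy, and 15.7 and 31.7 after 400 Gy, so the excess over 0 Gy was mostly at 400 Gy (edgeR adjusted p = 0.00568, and 0.287 length-corrected, for 400 against 200 Gy). Of 50 germline and oocyte regulators 0 were above and 2 below. Still, 38 of them had a higher log2 fold change, and the median was 0.37 against 0.18 over all genes tested. Their median deviation was 0.45 and -0.66 without irradiation, 0.54 and -1.45 after 200 Gy, and 1.13 and 0.30 after 400 Gy. The 0 Gy libraries were far apart for this list, so few members could fall outside. Replicate 1 was higher for this list at each dose, the opposite of the sperm genes at the irradiated doses. What part this replicate difference has in the sperm values was not tested.

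Genes of the pharynx and of body wall muscle were more often above than below. Of 16 tested genes of the pharynx, the muscular feeding organ, 5 were above and 1 below (median 1.55, 1.42 length-corrected). The pharyngeal myosin gene myo-2 had 7.04 and 10.4 CPM without irradiation, 17 and 15.6 after 200 Gy, and 89.2 and 78.6 after 400 Gy. The pharyngeal troponin C gene tnc-2 had 2.05 and 2.44 CPM without irradiation, 5.58 and 29.5 after 200 Gy, and 7.79 and 9.99 after 400 Gy. Of these, myo-2 was higher at 400 than at 200 Gy (edgeR adjusted p = 0.00375, and 0.207 length-corrected) and tnc-2 was highest in the second 200 Gy library. The 5 members above were F47B7.7, tnc-2, phat-6, myo-2 and tni-4, and the list is not of muscle genes alone. The 1 member below, nlp-12, encodes a cholecystokinin-like peptide of a tail neuron and is not a muscle gene. It had 33.7 and 36.3 CPM without irradiation, 12.1 and 15.2 after 200 Gy, and 2.71 and 8.53 after 400 Gy and was called lower (-2.22 ± 0.41 length-corrected, edgeR adjusted p = 0.0438; 0.0233 to 1.0 over its alternatives). Of 40 body wall muscle genes 11 were above and 1 below (median 0.78), or 5 and 1 with library totals alone. A further 11 were on opposite sides at the doses, below both 0 Gy libraries at 200 Gy and above both at 400 Gy. Over all 14417 genes tested this count was 1292. Above were unc-27, a troponin I (381 and 412 CPM without irradiation, 1443 and 1829 after 200 Gy, and 803 and 885 after 400 Gy), the tropomyosin gene lev-11 (1.29 ± 0.60) and the alpha-actinin gene atn-1 (1.01 ± 0.49). The member below was tni-1, another troponin I (70.8 and 107 CPM without irradiation, 27.8 and 48.4 after 200 Gy, and 28.6 and 51.6 after 400 Gy), so genes of the same thin filament protein stood on opposite sides.

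**Figure D3:**
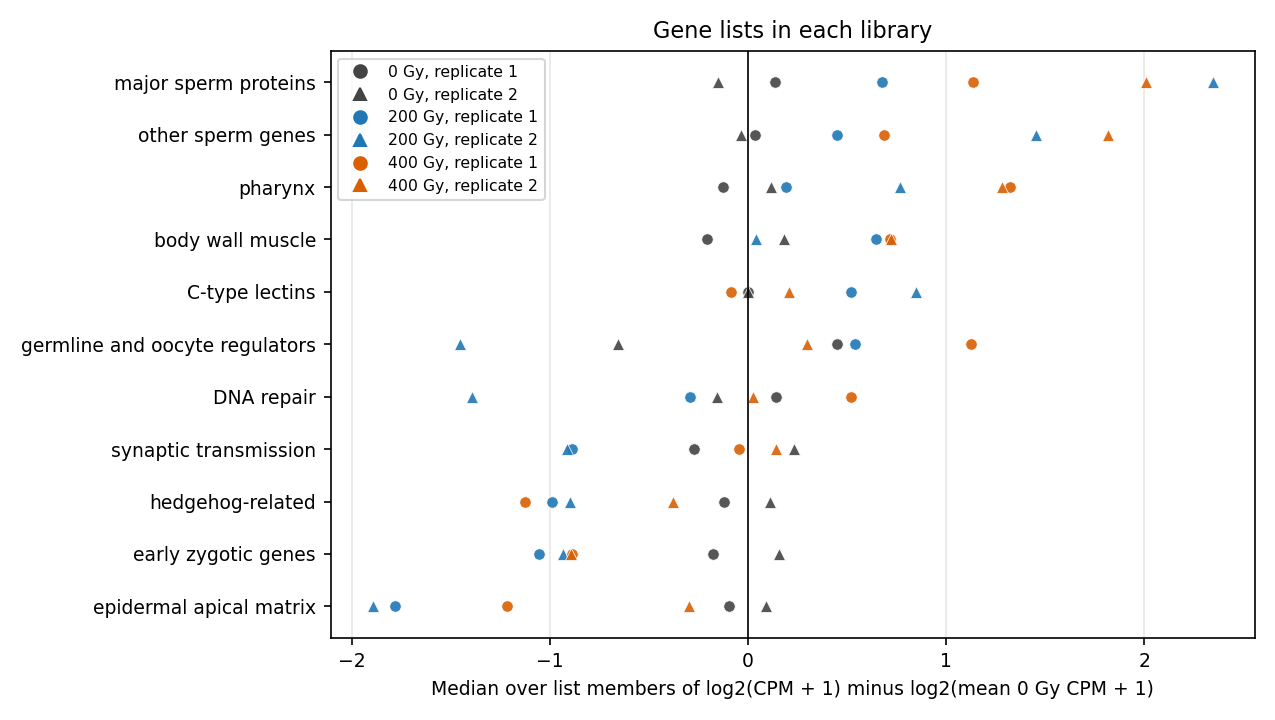
Median over the tested members of 11 gene lists of the log2 deviation of CPM from the 0 Gy mean, with 1 added to each CPM (x axis), in each library. Early zygotic, hedgehog-related and epidermal genes lie left of both 0 Gy libraries in all 4 irradiated libraries, sperm and pharynx genes lie right of them, and germline and repair genes separate by replicate or dose.

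Genes transcribed first in the embryo had the highest share below 0 Gy of the 50 lists. Of 28 tested members 20 stood below both 0 Gy libraries and 0 above (median -1.29, -1.36 length-corrected). The median deviation was -0.18 and 0.16 without irradiation, -1.05 and -0.93 after 200 Gy, and -0.89 and -0.89 after 400 Gy. The 4 irradiated libraries were close to each other on this measure, in which the 1 added to each CPM draws low values together. The list's median log2 fold change against 0 Gy was -1.70 at 200 Gy and -1.36 at 400 Gy. The list's median ran from -1.57 to -1.05 with single libraries left out. The largest gap was that of sdz-24 (chromosome II, 658702 to 659662), a zygotic transcript known to depend on the maternal factor SKN-1. It had 91.9 and 112.2 CPM without irradiation, 8.37 and 13.9 after 200 Gy, and 10.2 and 19.2 after 400 Gy. Each irradiated library was at least 4.77-fold below 0 Gy, and the gene was called lower (-3.05 ± 0.44 length-corrected, edgeR adjusted p = 0.0197; 0.000226 to 1.0 over its alternatives).

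T-box transcription factors were among them. Of 11 tested tbx genes 9 were below and 1, tbx-34, above, a family looked at after its values were seen. The pair tbx-37 and tbx-38, which act in early cells of the anterior embryo, had log2 fold changes of -2.23 ± 0.59 and -2.9 ± 0.64. In tbx-11 the values were 6.3 and 6.34 CPM without irradiation, 1.25 and 0.963 after 200 Gy, and 1.66 and 1.36 after 400 Gy. The early embryonic gene pes-10 had 6.22 and 9.43 CPM without irradiation, 0.976 and 1.16 after 200 Gy, and 2.37 and 0.817 after 400 Gy. In both, each irradiated library was below 0 Gy, at low counts. Also below were the very early transcripts vet-1 (-1.94 ± 0.51) and vet-2 (-1.72 ± 0.69). Of 18 eggshell genes and 6 yolk protein genes 0 stood on the same side of both 0 Gy libraries at both doses. In these lists the 0 Gy libraries themselves were far apart, with median deviations of 0.42 and -0.60 for eggshell genes and -0.52 and 0.38 for yolk genes, so few members could fall outside. With single libraries left out the median fold changes ran from -0.17 to 0.84 and from -0.90 to 0.44.

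Single genes outside the groups above are described next by their own values. F10D2.8 (chromosome V, 7150265 to 7150686) had the smallest adjusted p in the length-corrected test, 0.00727 in edgeR (4.15e-06 to 1.0 over its alternatives), with 9.17 and 15.4 CPM without irradiation, 0.558 and 0.674 after 200 Gy, and 0 and 0.363 after 400 Gy. These are few reads, and 1 library at 400 Gy held none. The lipase-related lips-6 had 5.32 and 28.4 CPM without irradiation, 0.976 and 1.06 after 200 Gy, and 0.526 and 0.999 after 400 Gy, a gene in which the 0 Gy libraries themselves differed several-fold. The cytochrome P450 gene cyp-33A1 (chromosome V, 7679400 to 7681433) had 64.9 and 98 CPM without irradiation, 12.7 and 19 after 200 Gy, and 11 and 13.7 after 400 Gy. Its 4 irradiated libraries lay close together, and it was called lower (-2.43 ± 0.41 length-corrected, edgeR adjusted p = 0.0313; 0.00141 to 1.0 over its alternatives). Of 52 tested P450 genes, which oxidise foreign and endogenous compounds, 14 were below and 5 above, with cyp-35B1 at -3.05 ± 0.66 and cyp-13A12 at 1.57 ± 0.55.

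Also called lower were glf-1 and bus-1. The galactofuranose gene glf-1, a UDP-galactopyranose mutase (chromosome IV, 5885836 to 5889574), had 19.6 and 24.2 CPM without irradiation, 3.77 and 3.08 after 200 Gy, and 2.89 and 5.9 after 400 Gy. The acyltransferase-like bus-1, whose mutants change how bacteria adhere to the cuticle, had 9.42 and 17.5 CPM without irradiation, 0.697 and 0.578 after 200 Gy, and 0.263 and 1.91 after 400 Gy. Both stood at least 3.32-fold below 0 Gy (length-corrected -2.44 ± 0.43 and -3.84 ± 0.61). The span of bus-1 overlaps R03H4.11. The log2 fold change of the acyltransferase-like oac-56, also called lower, was -3.19 ± 0.57 length-corrected (edgeR adjusted p = 0.0408; 0.00464 to 1.0 over its alternatives). Called lower too, with length-corrected log2 fold changes, were the short-chain dehydrogenase gene dhs-26 (-3.62 ± 0.56), the alpha-tubulin gene tba-8 (-3.47 ± 0.56), the saposin-like spp-9 (-3.46 ± 0.61) and spp-12 (-3.81 ± 0.69), and the adhesion cadherin gene fmi-1 (-2.68 ± 0.50). Without the correction fmi-1, spp-9 and spp-12 had wider errors (-2.19 ± 0.83, -2.72 ± 0.98 and -3.22 ± 0.98).

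Among secreted signals, ins-19 (chromosome II, 3126075 to 3126441), which encodes an insulin-like peptide, had 26.2 and 27.4 CPM without irradiation, 5.44 and 4.14 after 200 Gy, and 0.438 and 0.272 after 400 Gy. It was below 0 Gy at both doses and lower at 400 than at 200 Gy (edgeR adjusted p = 0.00331, and 0.0466 length-corrected), with a length-corrected log2 fold change of -3.99 ± 0.65 for the irradiated group (edgeR adjusted p = 0.0281; 0.00468 to 1.0 over its alternatives). Of 18 tested insulin-like genes 3 were below and 3 above. Of 41 genes of fatty acid metabolism 4 were above and 2 below (median 0.42, and 3 above and 4 below with library totals alone). Values of elo-7, an elongase gene and the member with the largest gap above, were 0.246 and 0.163 CPM without irradiation, 1.53 and 2.12 after 200 Gy, and 1.4 and 3.9 after 400 Gy. Those of the desaturase gene fat-7, the member with the largest gap below, were 3.03 and 4.88 CPM without irradiation, 0.697 and 1.64 after 200 Gy, and 0.175 and 0.363 after 400 Gy. Both are low, and in both the groups do not overlap. The elongase gene elo-8 (2.35 ± 0.75) was above as well. Of 6 lysosomal lipase genes, looked at after their values were seen, 3 were below and 0 above, among them lipl-1 (-1.78 ± 0.57) and lipl-2 (-1.6 ± 0.42).

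F-box proteins and Skp1-related proteins are the substrate receptors and adaptors of SCF ubiquitin ligases, which tag proteins for degradation. Of 177 tested F-box genes 45 were below and 7 above. The median of the family lay near 0 and changed sign with the scaling (0.0068 with TMM, -0.39 with library totals alone). The groups of the family, split after their values were seen, had different counts, which was not tested: 24 of 37 fbxb genes were below and 1 above (median -1.22), against 15 below and 5 above of 119 fbxa genes (median 0.22). Most fbxb genes had few counts, as in fbxb-17 with 2.54 and 2.6 CPM without irradiation, 0.279 and 0.867 after 200 Gy, and 0.876 and 0.363 after 400 Gy. The count filter could be met by the 0 Gy pair alone, and a low gene that entered this way would tend to stand below. The counts of low members below are therefore no support for a fall of the family. The fbxa gene fbxa-74 was above, with 11.1 and 15.5 CPM without irradiation, 69.2 and 91 after 200 Gy, and 32.5 and 73.4 after 400 Gy. Of 19 tested Skp1-related genes 7 were below and 0 above, and in skr-7 the values were 36.7 and 36.3 CPM without irradiation, 18.8 and 21.4 after 200 Gy, and 14.5 and 10.1 after 400 Gy. The skr family is one that the study picked out on these same worms, and its direction here adds no independent evidence.

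Few DNA repair genes were on the same side of both 0 Gy libraries at both doses. Of 55 tested DNA repair genes 0 were above and 1, nth-1, below, and 0 and 15 with library totals alone. Of 20 checkpoint genes 0 were above and 2 below (hus-1 and sir-2.1). The checkpoint share below, 10%, was near the 11% of all genes tested, of which 8.71% were above. Length-corrected, 6 of the 20 were below and 0 above, against 14.9% and 10.3% of all genes tested. Without the correction, more genes of both lists were on opposite sides at the doses. Of the 55 repair genes, 14 stood below both 0 Gy libraries at 200 Gy and above both at 400 Gy, and 2 the other way round. Over all 14417 genes tested these counts were 1292 and 1786. The gene rad-50, whose product helps to process the ends of DNA breaks, had 70.9 and 79.6 CPM without irradiation, 12 and 8.57 after 200 Gy, and 233 and 157 after 400 Gy. In atl-1, the ATR kinase gene, the values were 58.9 and 80.4 CPM without irradiation, 12.8 and 9.82 after 200 Gy, and 184 and 123 after 400 Gy. Both were below 0 Gy at 200 Gy and above it at 400 Gy (edgeR adjusted p = 0.00243 and 0.00272 for 400 against 200 Gy, and 0.0283 and 0.692 length-corrected). The coding lengths of these genes are long, 3939 and 7596 bases. The recombinase gene rad-51, of 1188 bases, had 75.3 and 55.5 CPM without irradiation, 74.3 and 50.4 after 200 Gy, and 81.5 and 59.3 after 400 Gy, with no separation of groups.

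Of 26 genes of the p53 pathway and cell death, 5 were above and 2 below, and 3 and 6 with library totals alone, where the list's median turned from 0.30 to -0.12. With TMM these were 19.2% above and 7.69% below, against 8.71% and 11% of all genes tested. The cell death activator egl-1 had counts of 16 and 5 without irradiation, 33 and 28 after 200 Gy, and 36 and 25 after 400 Gy. All 4 irradiated libraries were above, at 1.31 and 0.407 CPM without irradiation, 4.6 and 2.7 after 200 Gy, and 3.15 and 2.27 after 400 Gy, and the log2 fold change was 1.87 ± 0.70 (unadjusted p = 0.025, adjusted p = 0.436 in edgeR). Length-corrected, its groups overlapped. Counts of ced-13, a second target of CEP-1, were too low to test: 1 and 1 without irradiation, 7 and 7 after 200 Gy, and 5 and 2 after 400 Gy. The p53 gene cep-1 itself was below, with 69.3 and 76.8 CPM without irradiation, 37.5 and 40.7 after 200 Gy, and 62.4 and 43.8 after 400 Gy, and overlapped length-corrected. The nuclease gene crn-6 had 15.3 and 19.8 CPM without irradiation, 35 and 67.3 after 200 Gy, and 30.4 and 29 after 400 Gy and stood above at both doses.

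Coding length went with a gene's position at each dose more than in the joint group. Tested genes were split by coding length into 10 bins of equal size. In the bin of the longest genes, fold changes had a median (log2) of -1.32 at 200 Gy and 0.95 at 400 Gy, both against the same 0 Gy libraries, and 0.30 for the 4 irradiated libraries together. In the bin of the shortest genes it was 0.86, -0.48 and 0.41. Few long genes could be on 1 side at both doses: 2.08% of the longest bin were above and 3.54% below, against 11.4% and 16.4% in bin 5 from the shortest. Length-corrected, the shares in the longest bin were 7.77% and 13.5%. With the correction 1481 genes (10.3%) were above and 2145 (14.9%) below, among them 1043 of the 1256 and 1352 of the 1588 without it, and 0 genes changed sides.

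**Figure D4:**
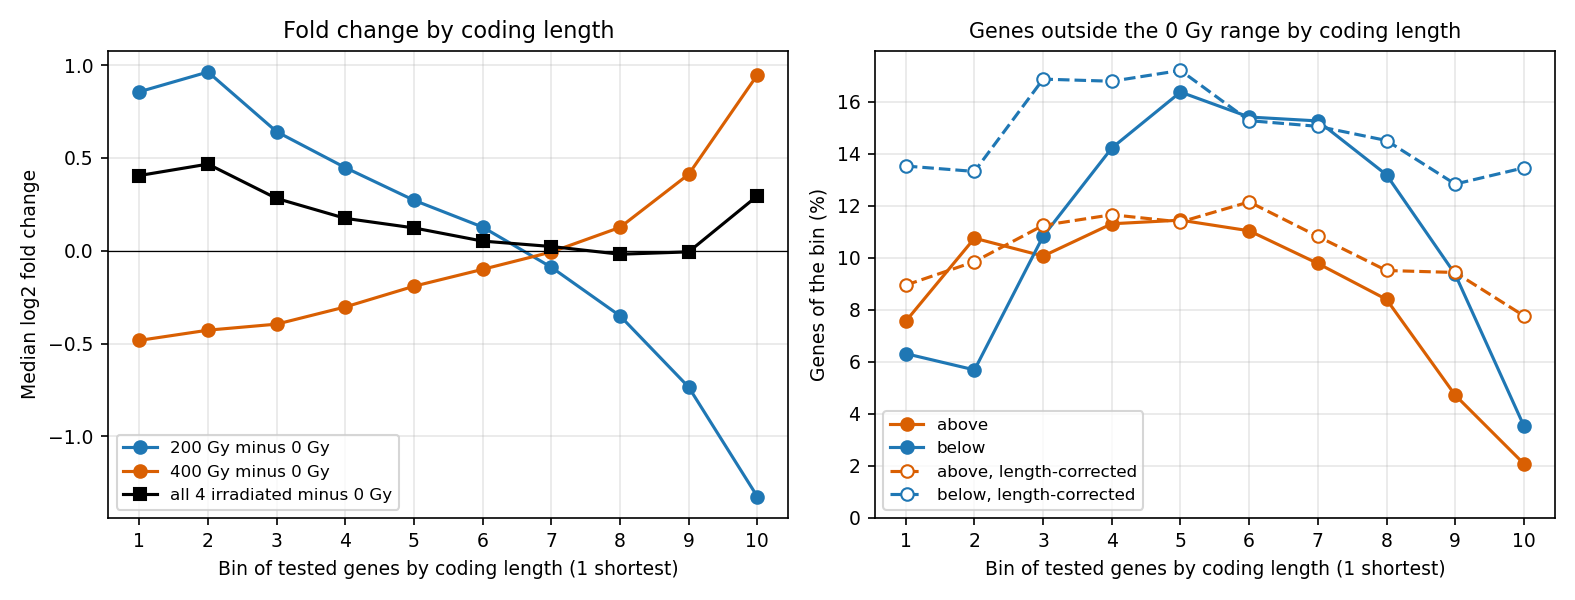
Tested genes in 10 bins by coding length (x axis, 1 shortest): on the left the median log2 fold change of each dose and of the joint irradiated group against 0 Gy, on the right the percentage of genes above or below both 0 Gy libraries in all 4 irradiated libraries. The lines of 200 and 400 Gy cross near bin 7, and the shares without the length correction (filled points) drop to 2.08% above and 3.54% below in the longest bin.

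The doses joined here differ widely from each other: 4495 genes (31.2%) passed the test of 400 against 200 Gy in edgeR, and 717 (4.97%) length-corrected. Of the 15 higher genes drawn by library 1 passed, mul-1, and of the 15 lower genes 0 passed. These genes were drawn for lying on 1 side of 0 Gy at both doses, which selects against a difference between the doses. The counts therefore do not show that the doses were alike. Of all genes on 1 side at both doses 7.17% passed the test of 400 against 200 Gy, against 37.1% of the others. For dpy-10, the lower gene with the smallest p in that test, log2 fold changes against 0 Gy were -2.76 at 200 Gy and -1.82 at 400 Gy (edgeR adjusted p = 0.0701, and 0.117 length-corrected, for the difference).

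Chromosomes differed in the share of genes below. On chromosome X 15.9% of tested genes stood below both 0 Gy libraries, against 8.65% to 11.4% on the 5 autosomes, and 6.19% stood above, against 7.18% to 11.2%. Length-corrected, 21.8% of genes on X were below, against 11.03% to 14.96%. In C. elegans most genes used in germ cells lie on autosomes, and X holds more genes of somatic tissues. Of the 27 genes called lower, those on X were col-41, dpy-7, dhs-26, lpr-6, spp-9, tba-8, EGAP4.1 and R173.3. Runs of 5 neighbouring tested genes on 1 side were found at 6 places, 3 above and 3 below, among them the lpr run. On chromosome IV the share above was the highest of the 6 chromosomes, and 5 neighbouring tested genes from 9836034 to 9844272 (msp-81, msp-10, kin-24, msp-56 and nspd-2), 4 of them sperm genes by name, all stood above.

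**Figure D5:**
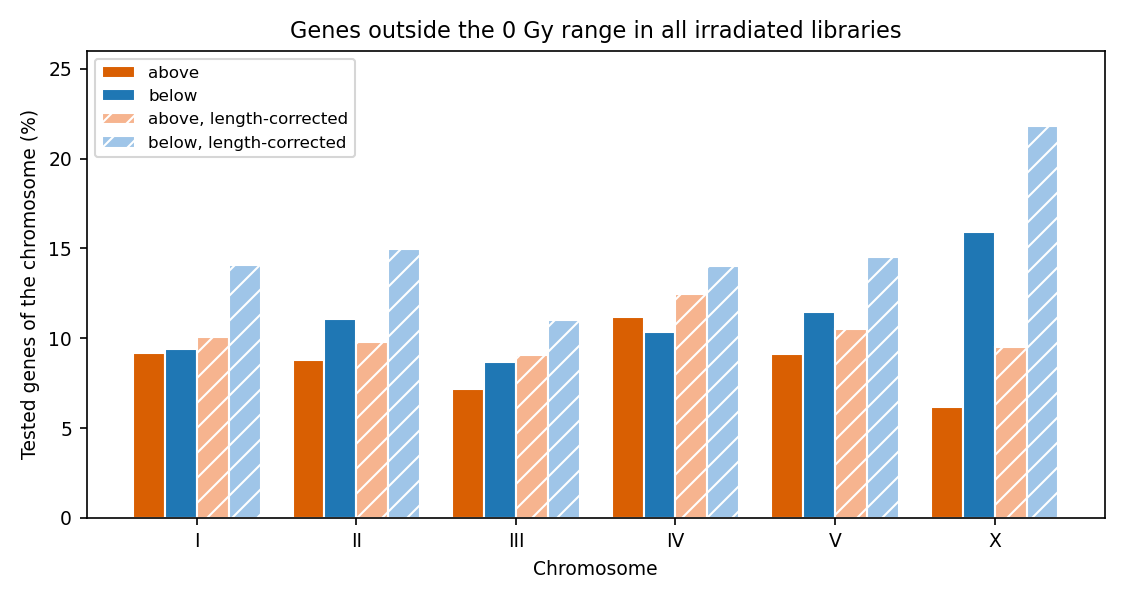
Percentage of the tested genes of each chromosome (y axis) with all 4 irradiated libraries above (orange) or below (blue) both 0 Gy libraries, without (solid) and with (hatched) the length correction. Chromosome X has the highest share below, 15.9% and 21.8% length-corrected.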

How the data were processed

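RNA sequencing of 6 whole-worm libraries, 2 per dose, was analysed. The deposited table gives raw read counts per gene and RPKM values, per the file headers. RPKM, which the authors computed from the same counts, was not tested. The submitters' processing notes name bcl2fastq, TopHat2 2.0.13 and the WBcel235 build, to which positions refer. Not given in the sources used here are the read counter, annotation release, strand setting and filters. Lengths in the table are multiples of 3 for 91.7% of tested genes and are called coding lengths.

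Genes kept by filterByExpr were scaled by TMM. The filter was given the irradiated and unirradiated groups and asked for enough counts in at least 2 libraries, so either group alone could meet it. In R 4.3.3, edgeR 4.0.16 compared, by quasi-likelihood, the 4 irradiated with the 2 unirradiated libraries, with Benjamini-Hochberg adjustment over 14417 genes and a threshold of 0.05. A gene was above or below where all 4 irradiated CPM values exceeded, or were under, both 0 Gy values, and the gap is the ratio of the nearest libraries. The length correction removed a loess trend (span 0.3) of each library's log2 deviation on log2 length. Each standard error was derived from the F statistic. The steps were tested on simulated counts. Between libraries of a dose, chi-square per degree of freedom was 64.3, 100.4 and 120.2, so none was a copy.

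Alternatives were other scalings, the DESeq2 1.42.0 Wald test, 3 dose groups, other filters and thresholds, the replicate number as a block, removal of ribosomal RNA genes and each library left out. A fit of 3 dose groups with the correction, gaps of 2-fold and 4-fold, and all alternatives for 400 against 200 Gy and for the length-corrected calls were added after the data were seen. Genes named are 15 per direction with a mean of at least 5 CPM, no overlap and the same direction length-corrected, filled by the smallest p since 0 passed the threshold; up to 4 members per list; genes of prior interest; and others, said to be chosen after their values were seen or named as the members of a count, a tissue marker or a length-corrected call. The comparison, the 51 lists and the rule were chosen with earlier results of these data known. The pals genes had no tested member by that name.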

Additional observations from a re-analysis of the deposited data

Results flagged for a closer look

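Among genes named above, the 2 irradiated doses differed in edgeR's quasi-likelihood test of 400 against 200 Gy. Log2 fold changes of 400 against 200 Gy were positive for tag-80 (4.68), rad-50 (4.25), atl-1 (3.76), noah-1 (2.99), alg-3 (2.92), fmi-1 (2.69), myo-2 (2.36), vet-2 (2.13), ptr-4 (1.99), unc-54 (1.91) and noah-2 (1.51). They were negative for ins-19 (-3.7), spp-12 (-3.55), spp-9 (-3.18), mul-1 (-1.69), dpy-9 (-1.3) and snb-1 (-1.26). With the length trend removed, ins-19 and rad-50 still passed (adjusted p = 0.0466 and 0.0283), and atn-1, at -1.52 length-corrected, passed only there. Coding lengths moved with the sign: tag-80, the longest, has 26699 bases and ins-19 has 324, and the part of length in these differences was not tested beyond that correction.

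In 9 genes 1 irradiated library stood apart from the other 3 by a gap, as a share of the group's range, beyond Dixon's critical value for 4 samples, which chance passes in about 1 in 20 groups. The gap was 0.962 of the range for mlt-9, 0.908 for clec-218, 0.904 for che-14, 0.883 for lpr-3 and 0.841 for ptr-10. In all 5 the second 400 Gy library was the highest of the 4 and the nearest to 0 Gy, as in lpr-3 with 42.4 and 38.1 CPM without irradiation, 7.11 and 5.2 after 200 Gy, and 6.74 and 21.5 after 400 Gy. The gap was 0.844 for lips-6, where the first 400 Gy library was the lowest. It was 0.842 for crn-6 and 0.82902 for spp-9, where the second 200 Gy library was the highest, and 0.83 for clec-67, where the first 200 Gy library was.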

How the results depend on the processing

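The median log2 fold changes of the 50 lists were recomputed under the scalings, filters, corrections and left-out libraries. They moved by less than the spread between irradiated libraries in 620 cases and by more in 30. Library totals alone put 507 genes above and 3183 below. A mean of at least 5 CPM left 601 and 849. A gap of at least 1.5-fold left 426 and 553, 2-fold 155 and 242, 4-fold 13 and 22, and 2-fold with the length correction 164 and 337. With single libraries left out the counts ran from 1233 to 2377 above and from 1886 to 2999 below. They were 2271 above and 2999 below without the first 0 Gy library, 2377 above without the second, and 1956 above without the first 400 Gy library.

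The count of 0 calls was 78 with the DESeq2 Wald test, 2 with 3 dose groups, 29 with the length correction and 533 with the correction and 3 dose groups, and it stayed at 0 without any single library, from 0 to 0. The 29 calls ran from 0 to 330 with single libraries left out. The test of 400 against 200 Gy gave 717 with the length correction, 1773 at an adjusted p of 0.01, and from 1149 to 5739 with single libraries left out (1149 and 2327 without the first or second 400 Gy library).

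Replicate numbers are shared by the doses, but the labels do not say what they mark. Differences between replicates 1 and 2 correlated across genes between doses (0.479, 0.375 and 0.596, and 0.488, 0.373 and 0.558 length-corrected). With the replicate number as a block, 0 genes passed, 0 with the length correction (against 29), and 7640 passed for 400 against 200 Gy.

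Genes whose groups overlapped changed sign. For atl-1 the log2 fold change was 0.24 as reported, -0.10 with library totals alone, -0.74 with 3 dose groups, -0.73 length-corrected, -0.72 with the block as well, and -0.73 with 3 doses and the correction. In the same order, without library totals, rad-50 went from 0.45 to -0.75, -0.29, -0.30 and -0.58. With library totals alone rad-51 stood at -0.40, oma-1 at -0.17 and vit-2 at -0.10. With a mean of at least 5 CPM rad-51 stood at -0.013, and without ribosomal RNA genes at -0.024. With single libraries left out, ranges were -0.51 to 0.65 for atl-1, -0.34 to 0.86 for rad-50, -0.20 to 0.26 for rad-51, -0.38 to 1.33 for oma-1, -0.062 to 0.85 for vit-2 and -1.01 to 0.38 for tag-80. The cause was not tested. In all, 1555 of the values of named genes kept their direction and side of the threshold, 123 passed it only under an alternative, and 26 changed sign.

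With 2 libraries at 0 Gy, the unirradiated range rests on a pair of values, and low genes such as fbxb-17 or F10D2.8 on few reads per library. The length trend, the replicate and the dose could not all be separated in 6 libraries.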

Other observations

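Of 14 tested guanylyl cyclase genes 5 were below both 0 Gy libraries and 0 above: gcy-32, gcy-33, gcy-35, gcy-36 and gcy-37. All are of the soluble type, which senses oxygen in a few neurons, a grouping made after their values were seen. The list as a whole was on opposite sides at the doses, with a median log2 fold change against 0 Gy of -1.74 at 200 Gy and 0.56 at 400 Gy. Its members below 0 Gy at 200 Gy and above it at 400 Gy were 3, against 1292 of 14417 genes tested. The study picked this family out on these same worms, and its direction adds no independent evidence. Values of gcy-37 were 4.67 and 5.94 CPM without irradiation, 1.12 and 2.21 after 200 Gy, and 1.75 and 1.63 after 400 Gy. Those of gcy-36 were 3.44 and 5.29 CPM without irradiation, 0 and 0.867 after 200 Gy, and 0.788 and 0.635 after 400 Gy. Both are low, and the groups do not overlap. A low gene such as gcy-36 could enter the test through its 0 Gy counts alone, which favours the lower side. Among 38 genes of synaptic transmission 6 were below (15.8%, against 11% of all genes tested) and 0 above, syd-1 with the largest gap (-1.82 ± 0.69). A further 10 stood below both 0 Gy libraries at 200 Gy and above both at 400 Gy, against 1292 of 14417 genes tested. Of 71 neuropeptide genes 13 were above and 5 below. Another 6 stood above both 0 Gy libraries at 200 Gy and below both at 400 Gy, against 1786 of 14417 genes tested. Length-corrected the counts were 10 above and 19 below, and with library totals alone 3 above and 9 below. The gene with the largest gap above was flp-1 (2.37 ± 0.74).

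The detoxification families were on no common side across all 4 irradiated libraries. Of 57 UDP-glucuronosyltransferase genes 5 were above and 3 below. Values of ugt-15 were 1.39 and 1.46 CPM without irradiation, 0.139 and 0.193 after 200 Gy, and 0.263 and 0.182 after 400 Gy. Those of ugt-8 were 0.409 and 1.06 CPM without irradiation, 3.35 and 8.57 after 200 Gy, and 3.85 and 7.9 after 400 Gy. These 2 members of the family stood on opposite sides of 0 Gy, and the low ugt-15 could enter the test through its 0 Gy counts alone. Of 43 glutathione S-transferases, also picked out by the study on these worms, 4 were above and 0 below. That share above, 9.30%, was near the 8.71% of all genes tested. The list's median log2 fold change against 0 Gy was 1.29 at 200 Gy and -0.22 at 400 Gy. Of its members 7 stood above both 0 Gy libraries at 200 Gy and below both at 400 Gy. Over all 14417 genes tested this count was 1786. Of 177 nuclear hormone receptors 25 were below and 12 above (45 and 4 with library totals alone), and nhr-25, which acts in epidermis and moulting, had 5.57 and 7.64 CPM without irradiation, 0.697 and 0.193 after 200 Gy, and 1.66 and 2.0 after 400 Gy. In the astacin metalloproteases 6 of 20 were below and 1 above. Of 77 cytosolic ribosomal proteins 0 stood on the same side of both 0 Gy libraries in all 4 irradiated libraries. Instead 28 of them stood above both 0 Gy libraries at 200 Gy and below both at 400 Gy, against 1786 of all 14417 genes. The list's median log2 fold change against 0 Gy was 0.87 at 200 Gy and -0.25 at 400 Gy.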
